A study of Mus musculus with 8 samples.

Results

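The IκB family holds the proteins that restrain or steer NF-κB. All 5 genes asked for by symbol, Nfkbia, Nfkbib, Nfkbie, Nfkbid and Nfkbiz, were found among the 11415 genes deposited. Levels came from ribosome-depleted, strand-marked RNA libraries of mouse macrophages grown from bone marrow in M-CSF, a growth factor for this lineage. Every culture, controls included, was of the IL10-/-RAG2-/- genotype on the 129S6/SvEvTac background, so the cells lacked intact Il10 and Rag2 genes in all groups. The 4 groups were untreated cells, cells with LPS (bacterial lipopolysaccharide, the ligand of Toll-like receptor 4) at 1 ng/mL over 195 min, cells given both LPS and 1 ng/mL IL-10 over 195 min (continuous IL-10), and cells with LPS for 195 min that received IL-10 during the final 30 min (late IL-10, whose dose the labels do not repeat). Each group had 2 libraries, described as independent pools of macrophages. The age of the mice is not among the labels.

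In resting cells the classical inhibitors IκBα (Nfkbia), IκBβ (Nfkbib) and IκBε (Nfkbie) hold NF-κB dimers in the cytoplasm through their ankyrin repeats. Toll-like receptor signalling activates the IκB kinase complex, the inhibitors are phosphorylated and degraded, and the freed dimers switch on inflammatory genes, the gene for IκBα among them, which closes a negative feedback loop. The nuclear family members IκBNS (Nfkbid) and IκBζ (Nfkbiz) are made after stimulation, bind NF-κB on DNA, and raise some secondary inflammatory genes while lowering others. IL-10 signals through STAT3 and restrains inflammatory gene expression in macrophages.

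A mature mRNA value and a pre-mRNA value (unspliced precursor, which follows current transcription more closely) were available for each gene. Values are normalized reads, that is read counts divided by a library size factor, and the 2 libraries of a group, here called A and B, were worked out from the deposited group means. Depth ran from 21412968 to 53172133 mRNA reads per library, and from 8661271 to 31508394 for pre-mRNA. The smallest mRNA count of any deposited gene was 11 in both LPS libraries and 0 to 2 in the other libraries. The deposited genes may thus have been chosen by their reads with LPS, by a rule not given in the sources used here. The absence of a marker from the table and the shares over all genes may depend on this. Il10 itself, disrupted in these cells, still gave 144 to 6199 normalized mRNA reads per library, and its 2 LPS libraries differed widely (524.5 and 3171). Where in the gene those reads lie was not analysed here. All 8 macrophage markers were in the table, with a summed mRNA level of 496400 to 836400 normalized reads in every library. Of 8 neutrophil markers 6 were in the table, with a summed mRNA level of 50.89 to 293 untreated and 791.6 to 1412 in the 6 libraries with LPS, and no B cell marker of 4 was in it. Of 5 stromal markers the 2 in the table summed by mRNA to 122.4 to 249.5 untreated, 2418 to 2637 with LPS, 600.4 to 687.2 with continuous IL-10 and 2339 to 2386 with late IL-10. Of 6 dendritic cell markers the 3 in the table summed to 122.9 to 148.8, 539.3 to 559.5, 305 to 332.4 and 421.6 to 559.1 in the same order. Of 3 endothelial markers the 2 in the table summed to 1224 to 2175, 1107 to 1941, 650.5 to 840.5 and 1320 to 1884. The 2 of 6 T cell markers in the table (Cd4 and Lck) summed to 23.81 to 120.4, 54.61 to 144.3, 197.6 to 483.4 and 168.4 to 368.1, and the 1 of 3 mast cell markers (Kit) did not exceed 44.47 in any library. The part of other cell types in the results was not tested. Fewer cells of a type and less RNA per cell cannot be told apart in such bulk libraries.

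The 5 genes lie on 4 chromosomes of build mm10. Nfkbia (ENSMUSG00000021025.8) spans chr12:55489410-55492647 on the minus strand with 6 exons in its longest coding transcript, Nfkbib (ENSMUSG00000030595.15) chr7:28758251-28767512 on the minus strand with 7, Nfkbie (ENSMUSG00000023947.8) chr17:45555703-45563169 on the plus strand with 6, Nfkbid (ENSMUSG00000036931.15) chr7:30421732-30428746 on the plus strand with 11, and Nfkbiz (ENSMUSG00000035356.17) chr16:55811375-55838899 on the minus strand with 14. The ends of Nfkbib overlap Ccer2 and Sirt2 on the opposite strand. The libraries kept strand information, but its use in counting is not given in the sources used here, so reads in those overlaps are uncertain. No overlap with another gene was annotated for the other 4.

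Because all 5 genes moved together with LPS, the stretch of 250 bases before each start in RefSeq (build GRCm38.p6) was searched on both strands for the 10-base NF-κB consensus, and matches are in capitals below. RefSeq windows matched 4 of the 5 symbols, and Nfkbid has several starts, of which the first and second are shown. The RefSeq start used for Nfkbib lies inside the gene span given above. Bases before the 28767512 end of that span were not searched. The windows are chr12:55492648-55492897 for Nfkbia (minus strand), chr17:45555450-45555699 for Nfkbie (plus), chr7:28766645-28766894 for Nfkbib (minus), and chr7:30421481-30421730 and chr7:30422156-30422405 for Nfkbid (plus), each written in the direction of the gene.
Nfkbia: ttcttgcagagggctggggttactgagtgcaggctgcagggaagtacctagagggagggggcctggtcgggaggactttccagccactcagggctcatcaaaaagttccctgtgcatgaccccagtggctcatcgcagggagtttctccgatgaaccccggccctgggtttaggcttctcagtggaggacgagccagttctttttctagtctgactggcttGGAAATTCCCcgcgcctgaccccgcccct
Nfkbie: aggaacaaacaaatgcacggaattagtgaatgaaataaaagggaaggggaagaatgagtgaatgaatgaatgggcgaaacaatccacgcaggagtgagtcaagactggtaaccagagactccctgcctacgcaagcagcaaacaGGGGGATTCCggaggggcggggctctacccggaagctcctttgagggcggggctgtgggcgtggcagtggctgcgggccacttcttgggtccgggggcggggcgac
Nfkbib: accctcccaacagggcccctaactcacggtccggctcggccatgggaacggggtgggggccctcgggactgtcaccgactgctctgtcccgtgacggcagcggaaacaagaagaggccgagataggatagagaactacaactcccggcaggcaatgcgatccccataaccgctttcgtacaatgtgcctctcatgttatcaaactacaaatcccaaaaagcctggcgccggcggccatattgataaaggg
Nfkbid first start: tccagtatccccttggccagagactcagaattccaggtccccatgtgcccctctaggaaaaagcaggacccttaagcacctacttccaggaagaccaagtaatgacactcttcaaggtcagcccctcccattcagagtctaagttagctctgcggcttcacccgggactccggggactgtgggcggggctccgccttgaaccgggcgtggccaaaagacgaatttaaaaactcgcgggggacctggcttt
Nfkbid second start: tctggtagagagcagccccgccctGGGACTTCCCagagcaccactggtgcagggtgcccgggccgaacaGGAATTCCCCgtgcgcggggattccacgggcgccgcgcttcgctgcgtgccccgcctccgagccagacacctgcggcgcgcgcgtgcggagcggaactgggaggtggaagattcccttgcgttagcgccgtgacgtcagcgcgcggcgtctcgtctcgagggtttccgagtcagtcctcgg

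The Nfkbia window held 1 match, 29 to 20 bases before the start, and the Nfkbie window held 1, 106 to 97 bases before it. The second Nfkbid window held 2, beginning 226 and 181 bases before its start, and the first Nfkbid window and the Nfkbib window held none. Of all 32851 windows of this length, 7.25% held at least 1 match. The palindrome TTCNNNGAA, a pattern read by STAT factors, matched once in the first Nfkbid window (TTCCAGGAA, 167 to 159 bases before the start) once in the window of the third Nfkbid start, and in none of the Nfkbia, Nfkbie, Nfkbib or second Nfkbid windows, against 7.02% of all windows. The 2 patterns overlapped in none of these windows. These matches describe letters and do not show binding.

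LPS raised all 5 genes, by mRNA and by pre-mRNA. For mRNA the fold was 21.9 for Nfkbia, 10.2 for Nfkbib, 32.3 for Nfkbie, 5.65 for Nfkbid and 74.2 for Nfkbiz, and the groups did not overlap for any of them. In the fit over all genes (limma on log2 of normalized reads + 1, all 4 groups sharing one estimate of the spread, Benjamini-Hochberg adjusted p under 0.05), 19.2% of 11415 genes rose and 16.5% fell by mRNA, while 22.3% of 11131 rose and 21.7% fell by pre-mRNA. Libraries of LPS lay wholly above the untreated ones for 34.7% of genes by mRNA and 36.2% by pre-mRNA. These shares are of the deposited genes, which had at least 11 mRNA reads in both LPS libraries. The median change of the 5 was 4.46 by mRNA and 4.16 by pre-mRNA on the log2 scale, against 0.01 and 0 over all genes tested.

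Nfkbia, the feedback inhibitor, had 2733 and 2463 normalized mRNA reads in the untreated libraries and 58490 and 55460 with LPS, which is 4.46 ± 0.19 higher in log2 (SE with n = 2 in each group, limma adjusted p = 2.5e-05). Its pre-mRNA went from 295.1 and 352.6 to 4965 and 6745 (4.16 ± 0.24, limma adjusted p = 3.6e-05). Both libraries of each group lay close together beside the distance between groups. Nfkbie, whose product binds mainly RelA and c-Rel dimers, had 682 and 729.8 mRNA reads untreated and 20560 and 25320 with LPS (5.01 ± 0.21, limma adjusted p = 2.5e-05). Its pre-mRNA went from 165.1 and 177.8 to 3965 and 4042 (4.54 ± 0.18, limma adjusted p = 1.1e-05). Nfkbib, often described as the slower-cycling classical inhibitor, had 639.7 and 1025 mRNA reads untreated and 8335 and 8151 with LPS (3.35 ± 0.24, limma adjusted p = 2e-04). Its untreated libraries were uneven, yet both lay far below either LPS library. Nfkbib pre-mRNA went from 271.7 and 390.5 to 2267 and 1976 (2.70 ± 0.24, limma adjusted p = 0.00017).

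Of the nuclear members, Nfkbiz had the largest LPS change and Nfkbid the smallest of the 5 in both measures. Nfkbiz mRNA had 888.4 and 595.8 reads untreated and 48490 and 60320 with LPS (6.21 ± 0.29, limma adjusted p = 3.3e-05), higher than the change of 98.8% of genes. Nfkbiz pre-mRNA had 564.1 and 561 reads untreated and 35990 and 40960 with LPS (6.09 ± 0.26, limma adjusted p = 1.3e-05). Its 95% interval of the mRNA change, 5.53 to 6.90, did not reach that of Nfkbia (4.01 to 4.90) or Nfkbid (1.99 to 3.01). Nfkbid mRNA had 473.6 and 479.1 reads untreated and 2481 and 2930 with LPS (2.50 ± 0.22, limma adjusted p = 0.00039), and its pre-mRNA 150.2 and 202.5 against 557 and 650.5 (1.78 ± 0.25, limma adjusted p = 0.0013). Scaling to total reads shifted the median LPS change of all genes by -0.75 for mRNA and -0.92 for pre-mRNA, and the share of calls that were rises went from 53.8% to 21.1% and from 50.7% to 20.9%. All 5 genes remained higher under it, but the Nfkbid pre-mRNA change of 0.87 no longer passed (limma adjusted p = 0.087).

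**Figure D1:**
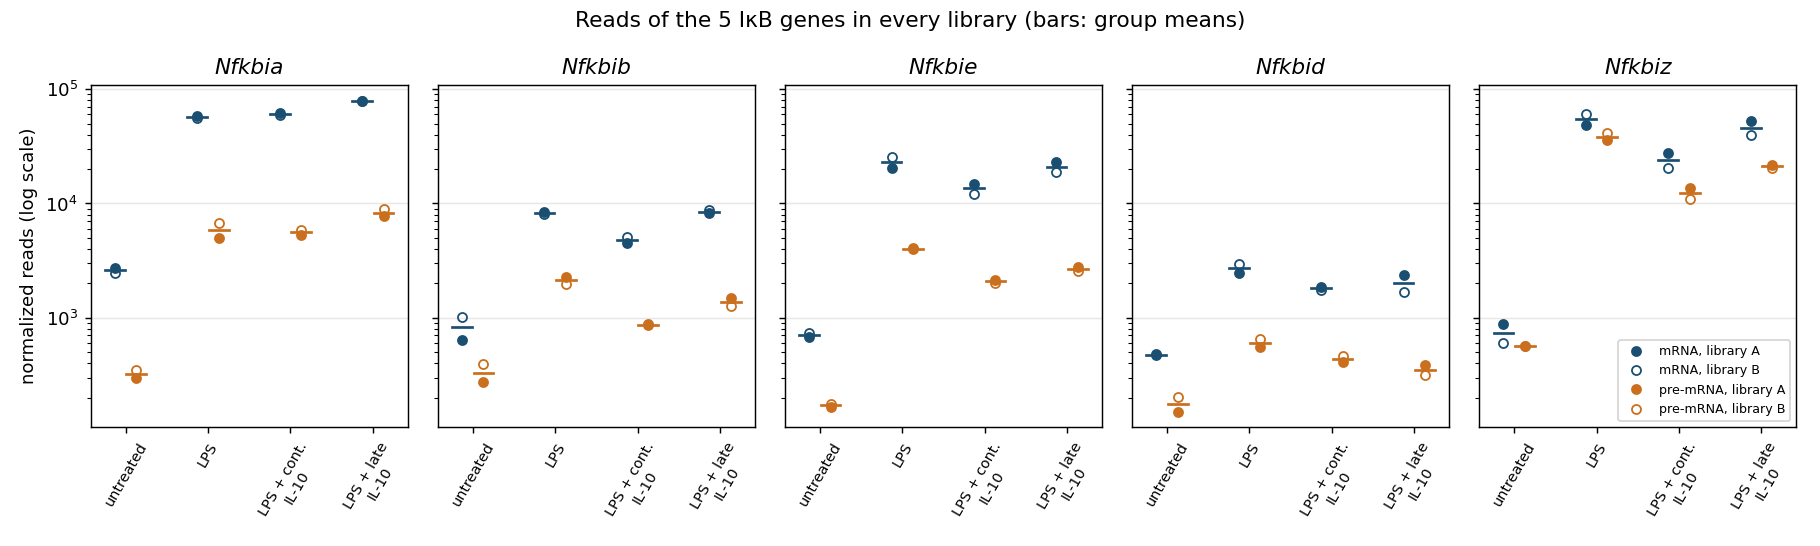
Normalized reads (log axis) of each IκB gene in both libraries of the 4 groups, mRNA in blue and pre-mRNA in orange, filled for library A and open for B, with bars at group means. All libraries with LPS sit above the untreated ones, and with continuous IL-10 (cont.) the pre-mRNA mean goes from 5855 to 5611 for Nfkbia and from 38480 to 12290 for Nfkbiz.

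The order of the genes was compared per kilobase of exon (GENCODE M21 exons, the gene models behind the counting being not given in the sources used here). Untreated, Nfkbia mRNA stood at 1732 and 1561 normalized reads per kb, above the other 4, which lay between 144 and 472.7. Among those 4, neighbours overlapped between libraries for Nfkbib with Nfkbie and for Nfkbid with Nfkbiz. With LPS the order was Nfkbia (37070 and 35140 per kb), Nfkbiz (11720 and 14580), Nfkbie (8443 and 10400), Nfkbib (3843 and 3758) and Nfkbid (1112 and 1313), and no neighbours overlapped. Nfkbiz thus moved from the fifth place by its mean to the second. With continuous IL-10, Nfkbiz (6679 and 4980 per kb) and Nfkbie (6124 and 4997) overlapped, and they did so with late IL-10 as well (12680 and 9534 against 9550 and 7687). The order by mean was the same in the 3 groups with LPS.

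How far IL-10 lowers these levels when present from the start was read against LPS alone. By pre-mRNA Nfkbiz, Nfkbib and Nfkbie fell, Nfkbid lay lower without passing the threshold, and Nfkbia was at about the level of LPS alone. The 3 falls stand against 4.26% of 11131 genes that fell, and 2.44% rose. Libraries of continuous IL-10 lay wholly below those of LPS for 4 of the 5 genes, against 25.6% of all genes.

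Nfkbiz pre-mRNA had 13570 and 11010 normalized reads with continuous IL-10, against 35990 and 40960 with LPS, and fell by 1.65 on the log2 scale (SE 0.26 with n = 2 in each group, limma adjusted p = 0.016). That is 3.14-fold lower, with both libraries far below either LPS library. Nfkbib pre-mRNA had 876.1 and 865.1 reads against 2267 and 1976, and fell by 1.28 (SE 0.24, limma adjusted p = 0.024). Nfkbie pre-mRNA had 2131 and 2033 reads against 3965 and 4042, and fell by 0.94 (SE 0.18, limma adjusted p = 0.028). Nfkbid pre-mRNA had 408.6 and 463.8 reads against 557 and 650.5, groups that did not overlap, with a change of -0.47 ± 0.25 (limma adjusted p = 0.32). Nfkbia pre-mRNA had 5339 and 5883 reads against 4965 and 6745, so both IL-10 libraries lay between the LPS libraries. Its change was -0.05 ± 0.24 (limma adjusted p = 0.94, 95% interval -0.61 to 0.51), and it turned to 0.42 with total-read scaling.

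Of the 3, Nfkbie lost its call in 9 of 15 alternatives, Nfkbib in 5 and Nfkbiz in 3. None of the 3 passed when only the 2 groups were fitted (limma adjusted p = 0.05 for Nfkbib, not under the threshold, 0.12 for Nfkbie and 0.11 for Nfkbiz) or without either library of continuous IL-10. Nfkbiz alone passed without LPS library A and with total-read scaling, where the median change of all genes shifted by 0.46 and the share of calls that were rises went from 36.5% to 52.9%. All 3 were lower in each of the 15. Pre-mRNA marker sums also lay lower with continuous IL-10 than with LPS. They were 267.7 to 269.7 against 1895 to 2181 for the stromal list, 53.93 to 107.7 against 199.8 to 224 for the dendritic cell list and 130.5 to 183.6 against 620.8 to 1403 for the endothelial list, and 37750 to 43590 against 55120 to 74790 for the macrophage list. Members of the macrophage list moved both ways, with 1 called higher and 1 called lower, and 3 of 8 higher and 5 lower in sign. Mean Adgre1 pre-mRNA went from 45170 with LPS to 18030, and mean Itgam pre-mRNA from 623.2 to 3856. The part of these marker changes in the 3 falls was not tested.

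By mRNA the same 4 genes lay lower with continuous IL-10, and limma called 0 of the 5, against 1.05% of 11415 genes called lower and 1.19% called higher. At an unadjusted p under 0.05, 4 were lower, with no share of all genes counted at that threshold, and limma-voom called 0. Nfkbiz mRNA had 27640 and 20610 normalized reads against 48490 and 60320 with LPS (-1.18 ± 0.29, limma adjusted p = 0.11). Nfkbie mRNA had 14910 and 12170 against 20560 and 25320 (-0.76 ± 0.21, limma adjusted p = 0.15). Nfkbib mRNA had 4479 and 5069 against 8335 and 8151 (-0.79 ± 0.24, limma adjusted p = 0.19), and Nfkbid mRNA 1861 and 1747 against 2481 and 2930 (-0.58 ± 0.22, limma adjusted p = 0.27). None of these 4 genes had overlapping libraries, as for 21.3% of genes that were wholly lower. Nfkbia mRNA was slightly above LPS in both libraries, as for 20.6% of genes, at 62390 and 59370 against 58490 and 55460 (0.10 ± 0.19, limma adjusted p = 0.91, 95% interval -0.35 to 0.54).

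**Figure D2:**
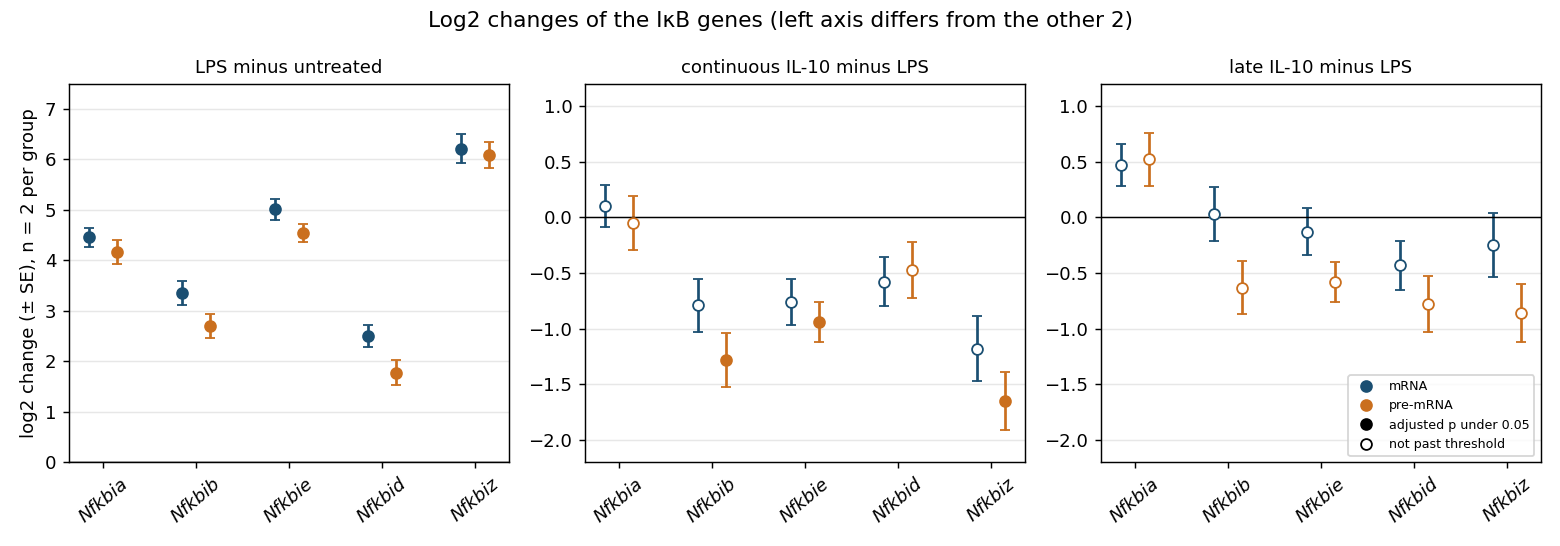
Log2 change (± SE, n = 2 per group) of each gene for 3 comparisons, mRNA in blue and pre-mRNA in orange, filled where adjusted p was under 0.05. With continuous IL-10 the filled points are the pre-mRNA of Nfkbib (-1.28), Nfkbie (-0.94) and Nfkbiz (-1.65), and with late IL-10 no point is filled.

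The late IL-10 group asked what 30 min of IL-10 did to cells already exposed to LPS. It was compared with the same LPS libraries as continuous IL-10, so the 2 comparisons are not independent. In this group 4 of the 5 pre-mRNAs, all but Nfkbia, lay below LPS alone without overlap, and Nfkbia lay above it without overlap. Limma called 0 of the 5 by pre-mRNA, against 0.979% of genes called higher and 0.0629% called lower, and limma-voom called 0. By unadjusted p under 0.05, 4 were lower, but the share of all genes at that threshold was not counted. Libraries of late IL-10 were wholly below LPS for 14.1% of all genes and wholly above for 13.1%.

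Nfkbiz pre-mRNA had 21770 and 20600 normalized reads with late IL-10 against 35990 and 40960 with LPS (-0.86 ± 0.26, limma adjusted p = 0.32). Nfkbid pre-mRNA had 384.1 and 318.7 against 557 and 650.5 (-0.78 ± 0.25, limma adjusted p = 0.35), the lowest level of the 3 groups with LPS. Nfkbib pre-mRNA had 1490 and 1257 against 2267 and 1976 (-0.63 ± 0.24, limma adjusted p = 0.51). Nfkbie pre-mRNA had 2787 and 2557 against 3965 and 4042 (-0.58 ± 0.18, limma adjusted p = 0.33). Each of these 4 kept its lower sign in all 15 alternatives. Nfkbia pre-mRNA was highest in this group, with 7728 and 8867 reads against 4965 and 6745 with LPS (0.52 ± 0.24, limma adjusted p = 0.74, 95% interval -0.04 to 1.08).

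By mRNA, 30 min of IL-10 left smaller differences. Limma called 0 of all 11415 genes by mRNA in this comparison, so percent called was 0, and limma-voom called 0 of the 5. Nfkbia mRNA was 79520 and 78510 against 58490 and 55460 with LPS (0.47 ± 0.19, limma adjusted p = 1, 95% interval 0.03 to 0.92), above the change of 96.9% of genes, and it was the only one of the 5 with an unadjusted p under 0.05. Nfkbid mRNA was 2365 and 1696 against 2481 and 2930 (-0.43 ± 0.22), with library A just below the lower LPS library. Wholly higher libraries, as for Nfkbia, were found for 6.18% of genes and wholly lower ones, as for Nfkbid, for 5.96%. Libraries overlapped for Nfkbiz (52480 and 39450 against 48490 and 60320), Nfkbie (23250 and 18720 against 20560 and 25320) and Nfkbib (8176 and 8704 against 8335 and 8151), with changes of -0.25 ± 0.29, -0.13 ± 0.21 and 0.03 ± 0.24.

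The 2 IL-10 schedules were then compared directly. Limma called 0 of the 5 by mRNA and 0 by pre-mRNA, against 1.09% and 2.96% of genes called in either direction. At an unadjusted p under 0.05, 3 were lower with continuous IL-10 in each measure, with no share of all genes counted there. Limma-voom called 0. Nfkbiz had the largest difference in both, -0.93 ± 0.29 by mRNA (limma adjusted p = 0.22) and -0.79 ± 0.26 by pre-mRNA (limma adjusted p = 0.14). Nfkbib was at -0.82 ± 0.24 and -0.65 ± 0.24, and Nfkbia at -0.38 ± 0.19 and -0.56 ± 0.24. Nfkbid was the exception in direction by pre-mRNA, at 0.31 ± 0.25, with 408.6 and 463.8 reads throughout against 384.1 and 318.7 late. Nfkbie was at -0.63 ± 0.21 by mRNA and -0.36 ± 0.18 by pre-mRNA, the latter turning to 0.08 with total-read scaling.

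With IL-10 on either schedule all 5 genes stayed above untreated cells in both measures. Against untreated, 14.2% of genes rose by mRNA and 14.1% by pre-mRNA with continuous IL-10, and 19.3% and 21.9% with late IL-10. The mRNA changes with continuous IL-10 ran from 1.92 ± 0.22 (Nfkbid) to 5.03 ± 0.29 (Nfkbiz), with Nfkbia at 4.55 ± 0.19. The pre-mRNA changes ran from 1.31 ± 0.25 (Nfkbid, limma adjusted p = 0.0073) to 4.44 ± 0.26 (Nfkbiz), with Nfkbib at 1.42 ± 0.24. With late IL-10 the mRNA changes ran from 2.07 ± 0.22 to 5.96 ± 0.29 and the pre-mRNA changes from 1.00 ± 0.25 to 5.23 ± 0.26, again for Nfkbid and Nfkbiz. Nfkbid pre-mRNA was the weak point of these calls. It did not pass without untreated library A (limma adjusted p = 0.051 throughout and 0.084 late), without late IL-10 library A (limma adjusted p = 0.10 late) or with total-read scaling (log2 change 0.86, limma adjusted p = 0.13 throughout; log2 change 0.11, limma adjusted p = 0.82 late). These comparisons share the untreated libraries with that of LPS alone.

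Nfkbia pre-mRNA lay near LPS alone with continuous IL-10 (-0.05) and above it with late IL-10 (0.52), with neither change called. Reads of Nfkbia were therefore set against those of each other member within the same library, a ratio that needs no size factor. This comparison was chosen after the values had been seen. By pre-mRNA the log2 ratio of Nfkbia to Nfkbiz was -2.86 and -2.60 with LPS, -1.35 and -0.90 with continuous IL-10, and -1.49 and -1.22 with late IL-10. The difference from LPS was 1.61 throughout and 1.37 late, with no overlap. Against Nfkbib the pre-mRNA ratio was 1.13 and 1.77 with LPS, 2.61 and 2.77 throughout, and 2.38 and 2.82 late. Against Nfkbie it was 0.32 and 0.74, then 1.32 and 1.53, then 1.47 and 1.79. Against Nfkbid it was 3.16 and 3.37, then 3.71 and 3.66, then 4.33 and 4.80. Each pre-mRNA ratio was higher with IL-10 on either schedule than with LPS, in every library.

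The mRNA ratios also lay higher with IL-10, by 1.28 (Nfkbiz), 0.89 (Nfkbib), 0.86 (Nfkbie) and 0.68 (Nfkbid) throughout and by 0.72, 0.44, 0.60 and 0.90 late, without overlap of libraries. Across all genes the ratio of Nfkbia to another gene was wholly higher for 27.3% (mRNA) and 18.6% (pre-mRNA) with continuous IL-10, and for 57.6% and 46.8% with late IL-10. With 2 libraries against 2 the exact two-sided permutation test gave p = 0.333 for each, the smallest it can give, so it cannot reach 0.05. A ratio shows that 2 genes changed unequally and not which of them changed.

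**Figure D3:**
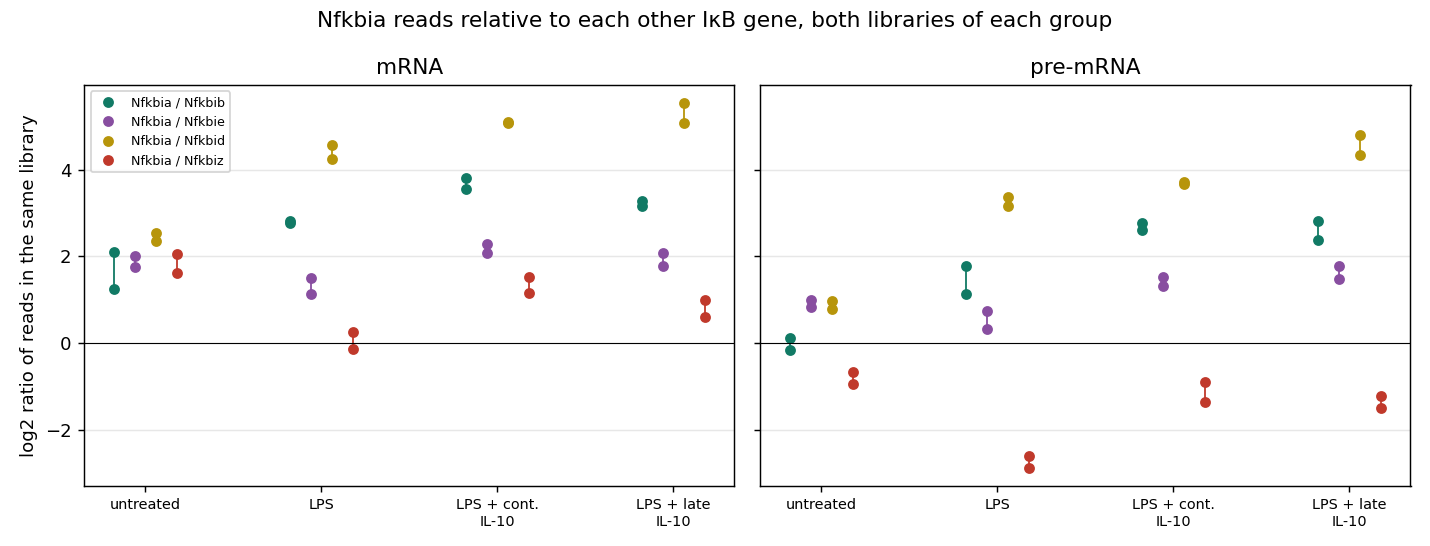
Log2 ratio of Nfkbia reads to those of each other IκB gene in both libraries of each group (points joined by a line), mRNA on the left and pre-mRNA on the right. Every ratio lies higher with IL-10 on either schedule than with LPS alone, and the pre-mRNA ratio to Nfkbiz goes from a mean of -2.73 to -1.12 and -1.36.

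Precursor and mature changes were compared in one fit of both measures, which takes them for independent measurements even though one RNA sample gave both. Limma called 0 of the 5 in any of the 4 comparisons tested, against 1.24% of genes for LPS, 0.0629% for continuous IL-10, 0.135% for late IL-10 and 0.494% between the schedules. At an unadjusted p under 0.05 there was 1 member, Nfkbid with LPS, whose pre-mRNA change minus its mRNA change was -0.72 ± 0.32 (95% interval -1.42 to -0.01, limma adjusted p = 0.45). With late IL-10 the difference was -0.66 ± 0.34 for Nfkbib, -0.61 ± 0.38 for Nfkbiz, -0.46 ± 0.27 for Nfkbie and -0.35 ± 0.32 for Nfkbid, and 0.04 ± 0.30 for Nfkbia. The 95% intervals included 0 for all 5, and that of Nfkbiz ran from -1.43 to 0.22, so the interval does not show that precursor and mRNA changed alike.

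**Figure D4:**
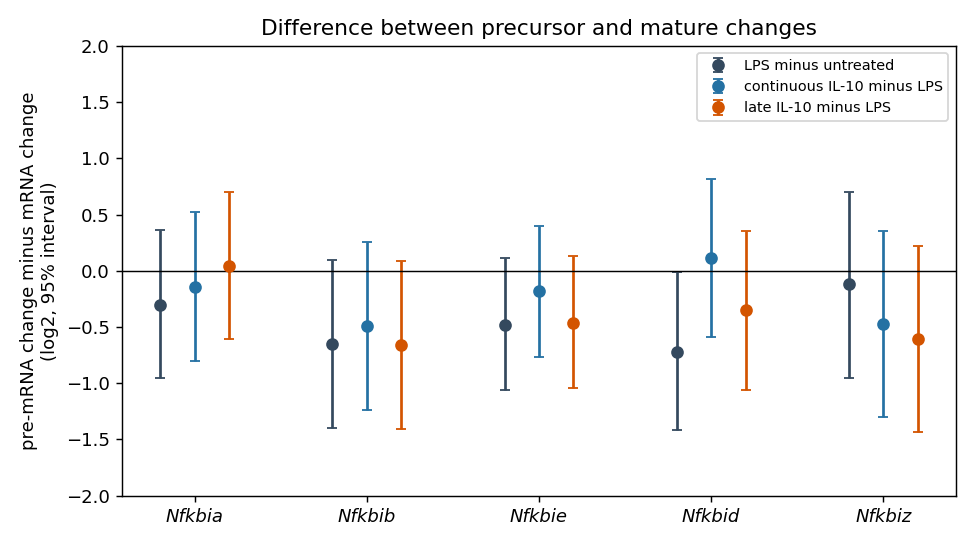
Pre-mRNA change minus mRNA change of each gene (log2, 95% interval) for 3 comparisons. All intervals reach 0 except that of Nfkbid with LPS, which ends at -0.01, and the late IL-10 points of Nfkbib, Nfkbie, Nfkbid and Nfkbiz lie between -0.66 and -0.35.

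Other genes of the pathway were counted from fixed lists, to be read beside the shares over all genes. With LPS 19.2% rose and 16.5% fell by mRNA, and 22.3% and 21.7% by pre-mRNA. Under continuous IL-10 these shares were 1.19% and 1.05% by mRNA and 2.44% and 4.26% by pre-mRNA. Under late IL-10 they were 0 by mRNA, and 0.979% and 0.0629% by pre-mRNA. The lists are short and were not tested as sets. Counts at an unadjusted p have no share of all genes at that threshold beside them. With LPS all 6 genes for the Rel proteins and Bcl-3 rose by mRNA (median 3.02) and 5 of 6 by pre-mRNA, among them Nfkb1, whose precursor p105 is itself an IκB-like inhibitor (3.92 ± 0.24 by mRNA), Nfkb2 (3.88 ± 0.29 by mRNA) and Relb (2.93 ± 0.20 by pre-mRNA). With continuous IL-10 limma called 0 of these 6 by mRNA (1 higher and 2 lower at an unadjusted p under 0.05, 0 by limma-voom), and by pre-mRNA 1 rose and 0 fell, while 4 were lower at an unadjusted p under 0.05 (Rel -1.72 ± 0.54, Nfkb1 -1.47 ± 0.53, Nfkb2 -0.83 ± 0.34 and Rela -0.60 ± 0.19). The gene that rose was Bcl3, a further nuclear IκB relative. Bcl3 pre-mRNA had 1532 and 1862 reads with LPS, 5734 and 5554 with continuous IL-10 and 9466 and 10940 with late IL-10, changes of 1.74 ± 0.29 (limma adjusted p = 0.018) and 2.59 ± 0.29 (limma adjusted p = 0.0079). Both IL-10 groups lay wholly above LPS, as for 13.1% of genes with late IL-10 (the share with continuous IL-10 is not given here). The pre-mRNA libraries of Nfkbiz and Nfkbid lay wholly below it, as for 25.6% (continuous) and 14.1% (late) of genes. Of those lower values only that of Nfkbiz with continuous IL-10 was called. By mRNA Bcl3 was not called (1.89 ± 0.40 and 1.03 ± 0.40).

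A list of 7 genes held those for the IκB kinases and their partners, and also Nfkbil1, which is not a kinase gene. Of these 7, 5 rose with LPS in each measure, with Ikbke at 3.24 ± 0.30 and Tank at 3.70 ± 0.44 by pre-mRNA. With continuous IL-10 1 of the 7 fell by pre-mRNA, Nfkbil1 (-1.52 ± 0.25, limma adjusted p = 0.017), an IκB-like gene, and limma called 0 by mRNA (3 lower at an unadjusted p under 0.05, 0 by limma-voom). Of 9 genes for ubiquitination and turnover of IκB, 3 rose and 1 fell with LPS by mRNA (median 0.71). The rises included the scaffold gene Cul1 (0.99 ± 0.20) and Fbxw11 (1.46 ± 0.34), which had a mean of 9671 reads with LPS. Fbxw11 also rose by pre-mRNA (1.99 ± 0.44). The fall was Btrc (-1.16 ± 0.22), with a mean of 238 reads with LPS. Its pre-mRNA was not called (-0.36 ± 0.34, limma adjusted p = 0.41). Limma and limma-voom called 0 with continuous IL-10, with 0 (mRNA) and 1 lower (pre-mRNA) at an unadjusted p under 0.05.

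Of 14 brakes on NF-κB signalling 7 rose with LPS in each measure, among them the deubiquitinase A20 gene Tnfaip3 (6.53 ± 0.33 by mRNA) and Tnip1 (3.85 ± 0.28). With continuous IL-10 2 rose by mRNA, both encoding A20-binding proteins: Tnip3 (2.83 ± 0.28, limma adjusted p = 0.0063) and Tnip2 (1.07 ± 0.17, limma adjusted p = 0.026). By pre-mRNA limma called 0 of the 14 (2 higher and 1 lower at an unadjusted p under 0.05, 0 by limma-voom), with Tnip3 at 2.08 ± 0.50 (limma adjusted p = 0.051) and Tnip2 at 0.84 ± 0.22 (limma adjusted p = 0.064). With late IL-10 the same 2 rose by pre-mRNA, Tnip3 by 3.92 ± 0.50 and Tnip2 by 1.67 ± 0.22, and by mRNA limma called 0 (2 higher unadjusted, 0 by limma-voom). Of 8 genes for RNases and RNA-binding proteins that act on the stability of inflammatory transcripts, of which Arid5a is known to stabilise them, 3 rose and 2 fell with LPS by mRNA, with Zc3h12c (5.19 ± 0.25) and Zc3h12a (Regnase-1, 3.36 ± 0.22) among the rises. With continuous IL-10 limma called 0 of the 8 in each measure (1 higher and 1 lower by mRNA and 2 higher and 1 lower by pre-mRNA where p was taken unadjusted, 0 by limma-voom), and Zc3h12a stood at 0.20 ± 0.22 by mRNA.

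The last list held 10 genes known to need IκBζ or IκBNS, among them Il6, Il12b and Lcn2. It also held Il10, disrupted in these cells, which was not called with LPS by mRNA (2.82 ± 1.13, limma adjusted p = 0.092). By mRNA 9 of the 10 rose with LPS, and with continuous IL-10 4 fell and 1 rose. The falls were led by Il12b (-7.45 ± 0.56, limma adjusted p = 0.0044) and Csf2 (-6.55 ± 0.73), and the rise was Saa3, an acute-phase gene, from 13000 to 106100 reads (3.06 ± 0.29, limma adjusted p = 0.0058). By pre-mRNA 4 fell and 1 rose as well, the falls including Il12b (-9.71 ± 0.72), Csf2 (-7.48 ± 0.92) and Il6 (-6.16 ± 0.66). In the late IL-10 group limma called 0 of the 10 in each measure (0 by mRNA, and 2 higher and 2 lower by pre-mRNA, where p under 0.05 was taken unadjusted), and limma-voom called 1 higher and 1 lower by pre-mRNA.

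Genes with the most similar pattern were found over the 8 group means (4 groups, 2 measures), each gene centred within each measure, by the root mean square difference in log2 units among 10861 others. Nearest to Nfkbia were Pde4b (0.135), a cyclic AMP phosphodiesterase, and Nupr1 (0.159). Pde4b mRNA had means of 964.5, 26250, 21630 and 29010 normalized reads untreated, with LPS, with continuous IL-10 and with late IL-10. Nearest to Nfkbiz were Traf1 (0.169), a signalling adaptor, and Rab11fip1 (0.199). Traf1 pre-mRNA had means of 495.7, 26670, 10640 and 16770 in the same order. Nearest to Nfkbie were Nod2 (0.164), a sensor of bacterial muropeptides, and Slfn2 (0.166). Nfkbib was nearest to the LPS co-receptor gene Cd14 (0.151) and to Itgav (0.177), and Nfkbid to Ifrd1 (0.096). The Cd14 pre-mRNA means rest mostly on library B, with 13.32 (A) and 298.7 (B) normalized reads untreated and 119.9 and 1787 with LPS. The median gene differed from Nfkbia by 1.97 and from Nfkbid by 0.91, so a small difference is easier to reach for Nfkbid, whose levels moved least.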

How the data were processed

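The authors deposited 1 table with a signal per gene, group and measure. Trim Galore, DESeq and build mm10 are named, without versions, per the submitters' processing notes. Aligner, counter and the rule for pre-mRNA reads: not given in the sources used here. With the 2 constants kept for its column, each signal the authors deposited could be written in exactly one way as a whole-number combination (relative error at most 5e-15). The mean of 2 libraries' reads over their size factors would have this form. Reads were recovered for 100% of values, and median-of-ratios factors computed from them equalled the deposited scaling. Some columns left 2 to 4 possible pairs of constants, and the pair that best matched these factors was kept. For those columns the match is not a separate check. The recovery and the fits were tested on simulated data. With the spread assumed there, limma called 29% to 39% of 2-fold changes and 96% to 100% of 4-fold changes in single-measure comparisons. Library A has the larger size factor of its group, and A of one group or measure need not share a pool with A of another.

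Recovered normalized reads were fitted with limma 3.58.1 (R 4.3.3) on log2(value + 1), which understates changes of low genes, keeping genes whose mean reached 1, with group as the only term. Errors are standard errors. For an unadjusted p under 0.05, the share of all genes was not counted in any comparison. P-values rest on this recovery and on library-to-library spread, some of it possibly technical, and 95% intervals are not adjusted. "Rose" and "fell" mean adjusted p under 0.05. Named genes were the 5 members, up to 2 called genes of each list per comparison by smallest adjusted p, and the 2 nearest patterns (1 of them is not reported here), with a few further listed genes given as values. The comparison of Nfkbia ratios was added after values were seen. Members, lists and tests were chosen with earlier results of these data known. Each comparison was also run with other pseudocounts, filters, scaling, limma-voom, 2 groups alone and without each library.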

Additional observations from a re-analysis of the deposited data

How the results depend on the processing

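The 16 counts of called members (6 comparisons in 2 measures, and 4 of pre-mRNA against mRNA) moved by over 1.5 times in 1 case, continuous IL-10 against LPS by pre-mRNA. There the 3 falls became 1 with total-read scaling and 0 with only the 2 groups compared, a fit with fewer libraries, and leaving out 1 library gave 0 to 3. The cause of the first was not tested. Leaving out 1 library gave 4 to 5 members above untreated by pre-mRNA on either IL-10 schedule. No called member changed sign under any alternative. Pseudocounts of 0.5 and 5, filters of 0 and 10 and limma-voom changed no member's call. No paired analysis was possible because the deposited columns carry no replicate number. The lowest member value was 150.2 normalized reads (Nfkbid pre-mRNA, untreated). With 2 libraries a group an mRNA change of -1.18 was not called, so values that missed the threshold are not shown to be equal.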
